A study of Rattus norvegicus with 20 samples.

Results

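Expression of 9 genes of the complement system was described in small vessels dissected from rat kidneys. The genes were chosen by name: C1qa, C1qb, C1qc, C4b, C3, Cfd, C6, C7 and Cfi. All 9 were found among the 16672 rows of the expression table, and all 9 passed the filter on low values. The 20 libraries came from male Dahl salt-sensitive (SS) rats, a strain that becomes hypertensive on salt, and from male SS rats labelled Ccl2-/-, called null below. Each strain was fed 0.3% NaCl (low salt) or 4.0% NaCl (high salt) for 2 weeks, with 5 rats in each of the 4 groups. Both strains share the SS background, and Ccl2 encodes a chemokine that draws monocytes. The labels give neither the age of the rats nor the kind of Ccl2 mutation. The material is a dissection of vessels, so other kidney cells may be in it.

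Complement is a cascade of plasma and tissue proteins that marks cells and debris for uptake, releases fragments that attract leukocytes, and can open pores in membranes. C1q, built from the C1qa, C1qb and C1qc chains, starts the classical pathway, which cleaves C4 and then C3, while factor D (Cfd) starts the amplification loop of the alternative pathway. C6 and C7 enter the membrane attack complex, and factor I (Cfi) cuts activated C3 and C4 and so ends the cascade. The liver makes much of the circulating protein, and kidney tubule cells, fibroblasts and macrophages make complement locally.

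The libraries held 22.0 to 47.9 M reads. Markers of smooth muscle (8 of 8 genes) and of blood endothelium (8 of 8) were read in every library, with summed normalized counts of 31560 to 59971 and of 28011 to 53558. Markers of proximal tubule (10 of 10) were read in every library too, with sums of 203910 to 335780, so the preparations also held tubule RNA. The targeted gene Ccl2 was still read in all 10 libraries labelled null, at 77.5 to 218 normalized counts against 138 to 426 in SS rats. Null rats did not differ from SS rats in Ccl2 past the test on low salt (log2 difference -0.12 ± 0.22, SE; limma adjusted p = 0.808), but were lower on high salt (-1.46 ± 0.22, adjusted p = 0.000473). A mutated gene can still be transcribed, and every direction between genotypes rests on the labels. SS high-salt rat 1 and null low-salt rat 4 lay apart from their groups, and results that change without them are given with both values.

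In SS rats on high salt, 7 of the 9 genes rose and 0 fell, with rises of 1.43- to 3.89-fold. C4b, C6, C7, Cfi and Cfd rose most, C1qa and C1qb rose less, and C1qc and C3 did not pass the test. Of all 16153 genes tested, 9.52% rose and 7.73% fell in this comparison. The median log2 difference was 1.39 over the 9 genes and -0.0039 over all genes tested. Scaled to the library total instead, which moved the median of all genes by 0.38, all 9 passed. With that scaling 8941 of all genes passed, against 2787 in the main fit. By edgeR and by DESeq2 7 of 9 rose and 0 fell, as in limma, which at an unadjusted p under 0.05 had 8 higher and 0 lower. For the unadjusted p the share of all genes was not counted, here or below. In 5 of the 9 genes (C4b, C7, Cfi, C1qa and C1qb) every SS rat on high salt lay above every SS rat on low salt, against 5.02% of all genes. In 0 of the 9 they all lay below, against 4.30%. The tests were limma fits across all genes on log2(normalized count + 1), with p-values adjusted by Benjamini and Hochberg and a threshold of 0.05. Because the material is bulk tissue, fewer cells of a type and less RNA per cell cannot be told apart in any of these comparisons.

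In null rats, high salt raised 0 of the 9 genes and lowered 1, C4b, where 3.06% of all genes rose and 2.45% fell. At an unadjusted p under 0.05 limma had 2 higher and 2 lower, and edgeR and DESeq2 each called 1 higher (C7) and 1 lower. The groups did not overlap for C7, which was higher on high salt, or for C4b and Cfi, which were lower; 5.60% and 5.18% of all genes had groups apart in these directions. On low salt, 1 of the 9 genes (C7) was higher in null than in SS rats and 0 were lower, against 0.452% of all genes that were higher and 0.105% that were lower; C7 was also the 1 gene whose groups did not overlap, against 2.10% (1.59% of all genes had null rats apart and lower). At an unadjusted p under 0.05 limma had 4 higher and 0 lower there, and edgeR called 0 and DESeq2 1. Scaling to the library total, which moved the median of all genes by 0.26, gave 6 higher, beside 4051 of all genes past the test, against 90. On high salt, C4b, Cfi and Cfd were lower in null rats (3 of 9, against 4.82% of all genes) and 0 were higher (3.70% of all genes). At an unadjusted p under 0.05 limma had 1 higher and 3 lower, and edgeR and DESeq2 each called 0 and 3. C4b and Cfi were the 2 genes whose groups did not overlap there, against 4.52%, and 0 were apart and higher, against 3.89%. The salt effect itself differed between the genotypes for C4b and Cfi (2 of 9 lower in null rats, against 1.76% of all genes, with 0.774% higher). No gene of the 9 was higher in the interaction by limma, edgeR or DESeq2 or at an unadjusted limma p under 0.05, which had 0 higher and 6 lower. The shares of all genes given here belong to the adjusted p or to groups apart, so counts at the unadjusted p cannot be set against them. These comparisons share groups: SS rats on high salt enter the salt comparison in SS rats, the comparison of genotypes on high salt and the interaction.

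**Figure D1:**
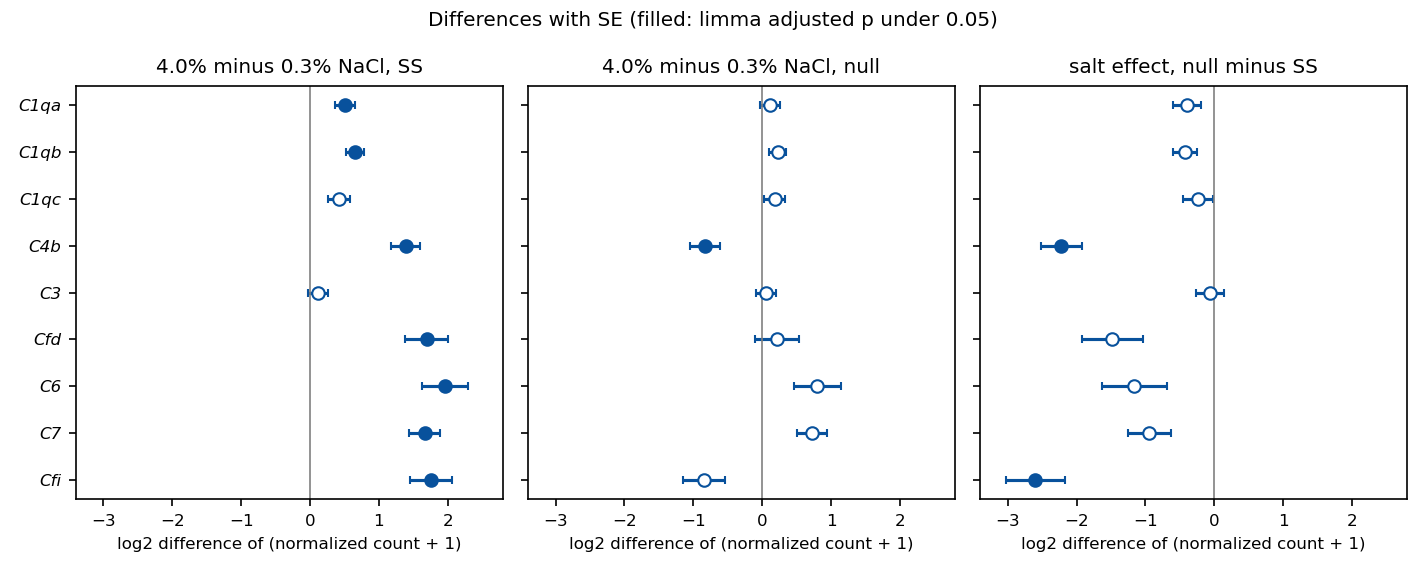
Log2 difference (x axis, with SE) of each of the 9 genes for high against low salt within SS and within null rats, and the null salt effect less the SS salt effect; filled points passed an adjusted p of 0.05. C4b and Cfi lie at 1.39 and 1.75 in SS rats and at -0.83 and -0.85 in null rats.

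C4b encodes complement C4, the substrate of the classical pathway, and lies on chromosome 20 together with the close copy C4a. In SS rats 1 to 5 on low salt, C4b read 815, 1241, 971, 866 and 827 normalized counts. In SS rats 1 to 5 on high salt it read 4686.5, 3503, 2173, 1609.8 and 1509. All 5 high-salt rats lay above all 5 low-salt rats, and rat 1 was the highest. In null rats 1 to 5 the low-salt values were 1097, 1107, 966, 1164 and 1363. Their high-salt values were 616, 601, 704, 659.9 and 605. The order was thus turned in null rats, where all 5 high-salt rats lay below all 5 low-salt rats and within a narrow range (637 ± 44.2, SD, n = 5). C4b rose by 1.39 ± 0.21 log2 in SS rats (adjusted p = 0.000201) and fell by 0.83 ± 0.21 in null rats (adjusted p = 0.0274). The fall in null rats did not pass when any of null low-salt rats 4 or 5 or null high-salt rats 1, 2, 4 or 5 was left out (adjusted p 0.0516 to 0.0666). On high salt C4b was lower in null than in SS rats by a log2 difference of -1.94 ± 0.21 (adjusted p = 3.7e-05), while on low salt the difference was 0.28 ± 0.21 and did not pass (adjusted p = 0.512). The interaction was -2.22 ± 0.30 (adjusted p = 0.00119).

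Cfi encodes factor I, a serine protease that inactivates the cleaved forms of C3 and C4 with the help of cofactors. Cfi read 234, 324, 284, 99.2 and 154 normalized counts in SS rats 1 to 5 on low salt. On high salt SS rats 1 to 5 read 1393, 847, 705, 421 and 416. As with C4b, the SS groups did not overlap, and the high-salt rats ranked in the same order for both genes. Null rats 1 to 5 read 249.6, 209, 187, 335 and 258 on low salt. On high salt they read 157, 109.7, 154, 158 and 105, all below the low-salt null rats. Cfi rose by 1.75 ± 0.30 log2 in SS rats (adjusted p = 0.000474), and was lower in null than in SS rats on high salt by -2.33 ± 0.30 (adjusted p = 0.000139). The salt difference in null rats, -0.85 ± 0.30, did not pass (adjusted p = 0.0939), but passed without SS high-salt rat 1, which enters the shared estimate of spread (adjusted p = 0.0448). The interaction for Cfi was -2.60 ± 0.43 (adjusted p = 0.0044).

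**Figure D2:**
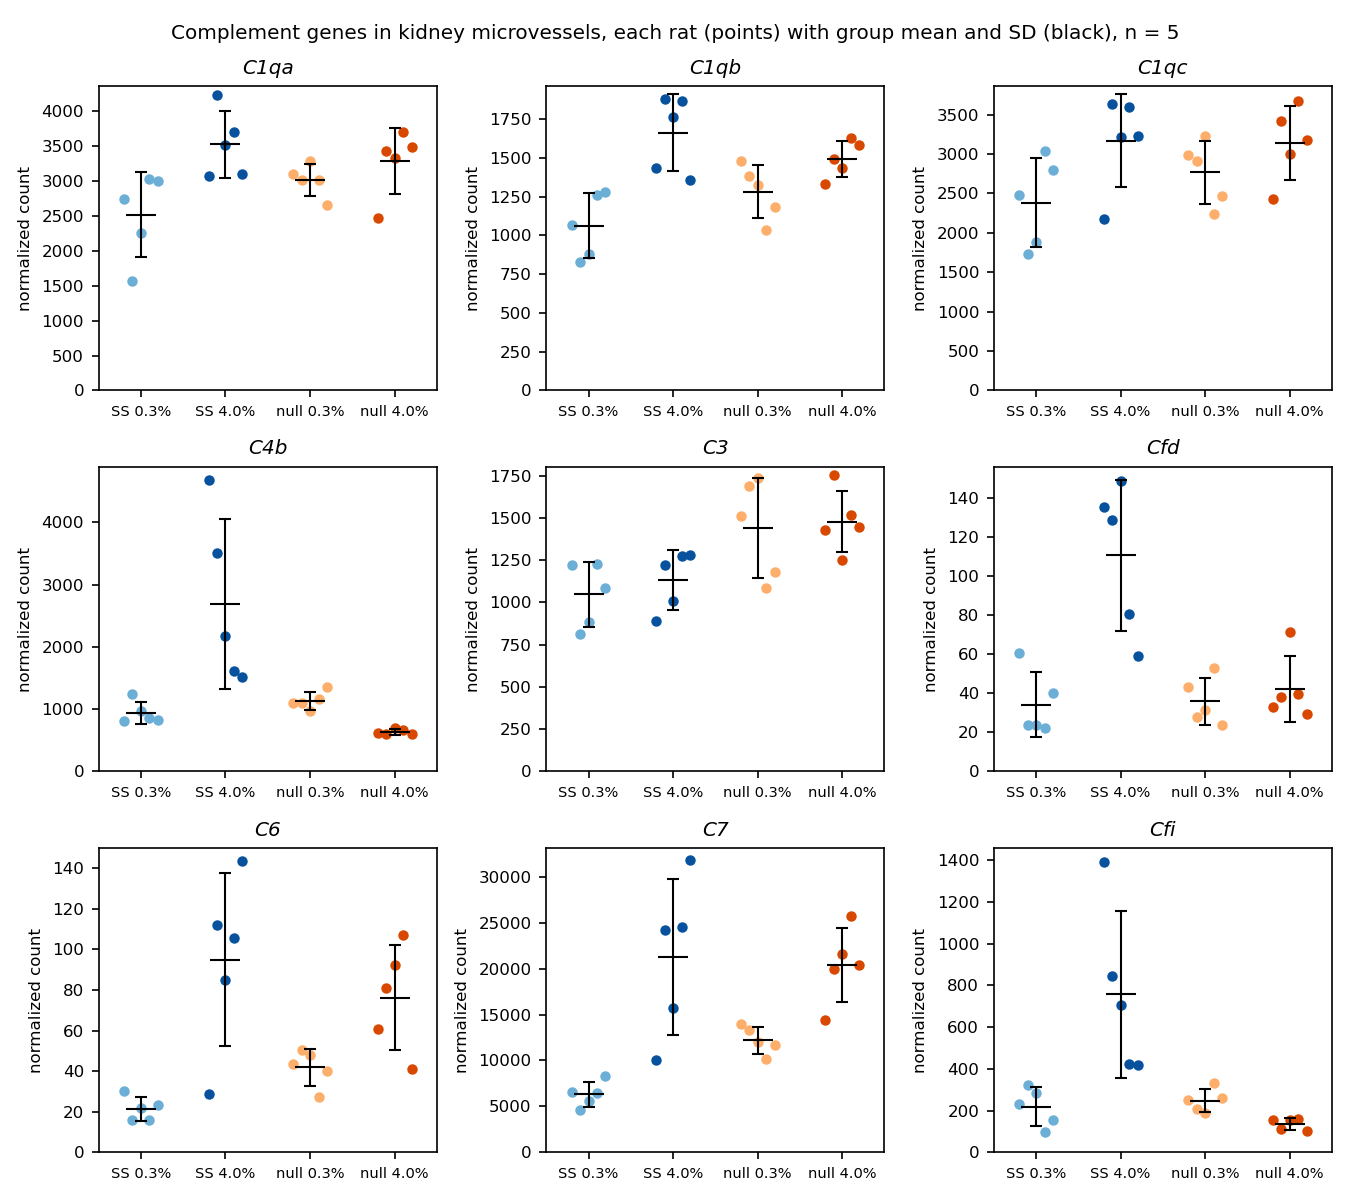
Normalized count (y axes, linear from 0) of each of the 9 genes in each rat (points), with the group mean and SD (n = 5), for SS and null rats on 0.3% and 4.0% NaCl. The 5 SS rats on high salt sit highest for C4b (1509 to 4686.5) and Cfi (416 to 1393), and the 5 null rats on high salt sit lowest for C4b (601 to 704).

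C4b moved with its copy C4a. C4a rose from 6221 ± 1075 to 13484 ± 8156 normalized counts in SS rats (log2 0.94 ± 0.24, adjusted p = 0.00928) and fell from 6285 ± 485 to 3508 ± 409 in null rats (-0.85 ± 0.24, adjusted p = 0.0403). Its interaction was -1.78 ± 0.34 (adjusted p = 0.00907). Both genes are close copies, so reads may be split or lost between them, and the RefSeq table lists C4b also as an older name of C4a. The transcripts of C4a and C4b were not compared. The ratio of C4b to C4a counts, which is not corrected for length, was 0.143 to 0.155 in SS rats on low salt and 0.178 to 0.222 in SS rats on high salt. These ranges did not overlap. In null rats the ratio was 0.146 to 0.218 on low salt and 0.167 to 0.209 on high salt, which did overlap.

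The sequences before the starts of C4b, C4a and Cfi are shown because these genes had higher mean counts on high salt in SS rats and lower mean counts on high salt in null rats. The fall in null rats passed for C4b and C4a and not for Cfi. They are the 250 bases upstream of each RefSeq start in the rat build GRCr8, all on the plus strand (chr20:4201729-4201978 for C4b, chr20:4010107-4010356 for C4a and chr2:221063066-221063315 for Cfi), and the expression files use another build, mRatBN7.2. Capitals mark an E box, CACGTG.
C4b: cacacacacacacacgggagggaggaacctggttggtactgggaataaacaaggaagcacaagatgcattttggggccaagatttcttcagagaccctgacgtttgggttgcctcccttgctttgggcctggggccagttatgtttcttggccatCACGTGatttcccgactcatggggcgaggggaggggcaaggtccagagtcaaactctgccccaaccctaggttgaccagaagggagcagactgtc
C4a: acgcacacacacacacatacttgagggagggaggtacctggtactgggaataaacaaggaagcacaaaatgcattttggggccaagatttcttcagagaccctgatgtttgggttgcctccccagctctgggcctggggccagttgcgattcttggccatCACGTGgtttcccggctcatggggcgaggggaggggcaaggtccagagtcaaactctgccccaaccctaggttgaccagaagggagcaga
Cfi: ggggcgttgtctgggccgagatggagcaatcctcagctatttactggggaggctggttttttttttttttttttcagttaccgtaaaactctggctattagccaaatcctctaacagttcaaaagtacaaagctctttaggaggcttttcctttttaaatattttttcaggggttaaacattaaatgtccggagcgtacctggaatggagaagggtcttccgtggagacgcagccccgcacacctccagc
The C4b and C4a windows matched at 88.8% of aligned positions, and C4b and Cfi at 45.2%. The E box lay 95 bases before the start of C4b and 90 bases before that of C4a. It is its own reverse complement and was found in 5.59% of 33469 rat promoter windows of the same length. Also searched on both strands were the STAT motif TTCNNNGAA (in 7.67% of windows), the interferon-stimulated response element (3.41%), the C/EBP motif TTNNGNAAT (10.9%) and the NF-kB motif (6.33%). These letters were not found in the C4b, C4a or Cfi windows, and a match or its absence is a description of this window alone.

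Cfd encodes factor D, the serine protease that cleaves factor B and is also known as adipsin for its release by fat cells. Its counts were low. Cfd read 60.6, 23.8, 23.9, 22.2 and 40.3 normalized counts in SS rats 1 to 5 on low salt. On high salt SS rats 1 to 5 read 136, 129, 149, 80.6 and 58.9. The groups overlapped by 1 rat on each side, since low-salt rat 1 lay above high-salt rat 5. Null rats 1 to 5 read 43.4, 28.0, 31.5, 52.9 and 23.9 on low salt, and 33.1, 38.1, 71.3, 39.6 and 29.3 on high salt. Cfd rose by 1.70 ± 0.32 log2 in SS rats (adjusted p = 0.000911) and differed by 0.21 ± 0.32 in null rats, which did not pass (adjusted p = 0.725). On high salt Cfd was lower in null than in SS rats (-1.36 ± 0.32, adjusted p = 0.013). That difference was -0.96 and did not pass with the mean log2 level of tubule markers as a covariate (adjusted p = 0.223). The interaction, -1.48 ± 0.45, did not pass (adjusted p = 0.0755), but passed without SS low-salt rat 1 (adjusted p = 0.037), null high-salt rat 3 (0.049) or SS high-salt rat 5 (0.0349).

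C3 encodes the protein on which all complement pathways meet, and it did not pass the test in any of the 5 comparisons. SS rats 1 to 5 read 1223, 814, 886, 1225 and 1085 normalized counts on low salt, and 888, 1221, 1007, 1275 and 1279.9 on high salt. Null rats 1 to 5 read 1508, 1687, 1736, 1087 and 1179 on low salt, and 1428.5, 1754, 1248, 1516 and 1444 on high salt. The diets overlapped widely within each genotype, while 3 of 5 null rats on low salt and 4 of 5 on high salt lay above every SS rat on the same diet. The log2 difference for salt was 0.12 ± 0.14 in SS rats (adjusted p = 0.61) and 0.05 ± 0.14 in null rats (adjusted p = 0.854). Null rats had higher mean values on low salt (0.45 ± 0.14, adjusted p = 0.109) and on high salt (0.39 ± 0.14, adjusted p = 0.0896), and neither difference passed.

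C6 and C7 follow C5b in the membrane attack complex, and their genes lie close together on chromosome 2 in GRCr8, with Mroh2b as the 1 protein-coding gene between them. C7 read 6578, 4643, 5642, 6515 and 8274 normalized counts in SS rats 1 to 5 on low salt. On high salt SS rats 1 to 5 read 10059, 24204, 15759, 24529 and 31761. Every SS rat on high salt lay above every SS rat on low salt, and rat 1, the highest for C4b and Cfi, was the lowest of the high-salt rats for C7. Null rats 1 to 5 read 13923, 13296, 11960, 10187 and 11634 on low salt. On high salt they read 14361, 19928, 21599, 25682 and 20399. The null groups also stood apart, and all null rats on low salt lay above all SS rats on low salt. C7 rose by 1.67 ± 0.22 log2 in SS rats (adjusted p = 3.95e-05). In null rats the difference of 0.73 ± 0.22 did not pass (adjusted p = 0.0547), but passed without SS high-salt rat 1 (adjusted p = 0.0106), SS high-salt rat 5 (0.0365) or null high-salt rat 1 (0.0414).

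On low salt C7 was higher in null than in SS rats by a log2 difference of 0.96 ± 0.22 (adjusted p = 0.0454). That call was lost in 14 of the 20 fits with 1 library left out (adjusted p 0.0502 to 0.112). On high salt the genotypes differed by 0.02 ± 0.22 (adjusted p = 0.964). The interaction for C7, -0.94 ± 0.31, did not pass with all libraries (adjusted p = 0.109) and passed without SS high-salt rat 1 (-1.18, adjusted p = 0.0185).

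C6 had few reads, 10 to 28 per library in SS rats on low salt. Its normalized counts in SS rats 1 to 5 were 30.3, 15.9, 21.7, 15.8 and 23.5 on low salt, and 28.6, 112, 85.0, 106 and 143 on high salt. High-salt rat 1 lay within the low-salt range and the other 4 lay above it. Null rats 1 to 5 read 43.4, 50.4, 48.1, 27.5 and 40.1 on low salt, and 60.6, 80.9, 92.1, 107 and 40.8 on high salt. C6 rose by 1.96 ± 0.34 log2 in SS rats (adjusted p = 0.000461). The salt difference in null rats, 0.80 ± 0.34, and the genotype difference on low salt, 0.95 ± 0.34, did not pass (adjusted p = 0.152 and 0.148). Without SS high-salt rat 1 they passed (adjusted p = 0.0452 and 0.0491), as did the interaction (-1.54, adjusted p = 0.0317, against -1.16 and 0.2 with all libraries).

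The 3 chains of C1q are made mainly by macrophages and dendritic cells, and their genes stand next to each other on chromosome 5 in GRCr8. C1qb read 1069, 825, 883, 1262 and 1277 normalized counts in SS rats 1 to 5 on low salt, and 1438, 1882, 1766, 1869 and 1359 on high salt. The SS groups did not overlap. C1qb rose by 0.65 ± 0.12 log2 in SS rats (adjusted p = 0.00116), and in null rats, at 1037 to 1479 on low salt and 1331.5 to 1627 on high salt, the difference of 0.23 ± 0.12 did not pass (adjusted p = 0.283). C1qa read 2746, 1573, 2261, 3022 and 2993 in SS rats 1 to 5 on low salt, and 3077, 4227.5, 3511, 3703 and 3097 on high salt. These groups were apart by a narrow gap. C1qa rose by 0.51 ± 0.14 in SS rats (adjusted p = 0.0162), a call lost without SS high-salt rat 2 (adjusted p = 0.05) and in a fit of the SS rats alone (adjusted p = 0.0588).

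C1qc, the remaining chain, read 2474, 1727, 1887, 3034 and 2796.5 in SS rats 1 to 5 on low salt, and 2170.0, 3634, 3216, 3599 and 3222 on high salt. Rat 1 lay below 3 of the low-salt rats and the other 4 high-salt rats lay above all of them. Its difference of 0.42 ± 0.16 did not pass (adjusted p = 0.0668), and passed without SS high-salt rat 1 (0.55, adjusted p = 0.0114) or SS low-salt rat 4 (0.52, adjusted p = 0.0279). In null rats C1qa differed by 0.11 ± 0.14 and C1qc by 0.18 ± 0.16 (adjusted p = 0.675 and 0.521). No C1q chain passed in the interaction, where the log2 values were -0.40 ± 0.20 for C1qa, -0.43 ± 0.18 for C1qb and -0.24 ± 0.22 for C1qc (adjusted p = 0.302, 0.201 and 0.606). The ratio of C1qa to C1qb counts stayed between 1.86 and 2.91 in the 20 libraries.

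Of 46 other complement genes in lists of the pathway, 32 were in the table and 31 were tested. In SS rats high salt raised 11 and lowered 2 (median log2 difference 0.18), against 9.52% and 7.73% of all genes. In null rats it raised 4 and lowered 1 (median 0.05), against 3.06% and 2.45%. On low salt 0 of the 31 differed between the genotypes in limma or edgeR, against 0.452% of all genes higher and 0.105% lower in limma. At an unadjusted limma p under 0.05 there were 4 higher and 1 lower, and DESeq2 called 3 and 1. On high salt 2 were higher and 5 lower in null than in SS rats, against 3.70% and 4.82% of all genes. The interaction passed for 3, all lower, against 1.76% of all genes lower and 0.774% higher. Those 3 were C4a, clusterin (Clu), which binds the late complex (-1.21 ± 0.24, adjusted p = 0.014), and Itgam, a chain of complement receptor 3 (-1.003 ± 0.246, adjusted p = 0.0309). Clu rose from 11082 ± 1712 to 25428 ± 9160 normalized counts in SS rats (log2 1.13 ± 0.17, adjusted p = 0.000181), and was 10369 ± 675 on low and 9770.0 ± 601 on high salt in null rats.

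The proteases of the classical pathway rose in SS rats beside C1q, with C1s at log2 1.35 ± 0.18 (adjusted p = 3.61e-05) and C1r at 1.18 ± 0.20 (adjusted p = 0.000348). Their relative C1rl rose in both genotypes, by 0.54 ± 0.12 in each (adjusted p = 0.00449 in SS and 0.0156 in null rats). Masp1, a protease of the lectin pathway, rose by 1.15 ± 0.22 in SS rats (adjusted p = 0.00102) and by 1.22 ± 0.22 in null rats (adjusted p = 0.0034). C1s also rose in null rats (0.63 ± 0.18, adjusted p = 0.0402), as did the scavenger receptor Colec12 (1.02 ± 0.23, adjusted p = 0.0131). The recognition protein ficolin A (Fcna) rose in SS rats (0.83 ± 0.28, adjusted p = 0.044). With the members included, 9 of 14 tested genes of classical and lectin activation rose in SS rats and 0 fell (median 0.60), against 9.52% and 7.73% of all genes.

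Of the alternative pathway, factor B (Cfb, 0.44 ± 0.12, adjusted p = 0.012) and properdin (Cfp, 0.52 ± 0.12, adjusted p = 0.00483) rose in SS rats with Cfd, while C3 did not pass. Regulators in the fluid phase rose in 3 of 5 cases, namely Cfi, Clu and C1 inhibitor (Serping1, 0.72 ± 0.16, adjusted p = 0.00305). None of the 5 regulators on the cell membrane that were tested, Cd55, Cd46, Cd59, Csmd1 and Susd4, passed in any of the 5 limma or edgeR comparisons. At an unadjusted limma p under 0.05, 1 was lower and 0 higher for salt in SS rats and 1 higher and 0 lower for salt in null rats, and DESeq2 called the same numbers. On that unadjusted rule 1 was higher in null rats on high salt, 1 in the interaction and 0 on low salt, where DESeq2 called 0 each. Receptors were mixed, with Itgam higher (0.87 ± 0.17, adjusted p = 0.00169) and Cd93 and C1qbp lower (-0.39 ± 0.13 and -0.20 ± 0.06, adjusted p = 0.0397 and 0.0347). On high salt, C5 was lower and C8b and Masp1 higher in null than in SS rats (-0.54 ± 0.17, 1.09 ± 0.29 and 0.77 ± 0.22, adjusted p = 0.0452, 0.0241 and 0.03).

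**Figure D3:**
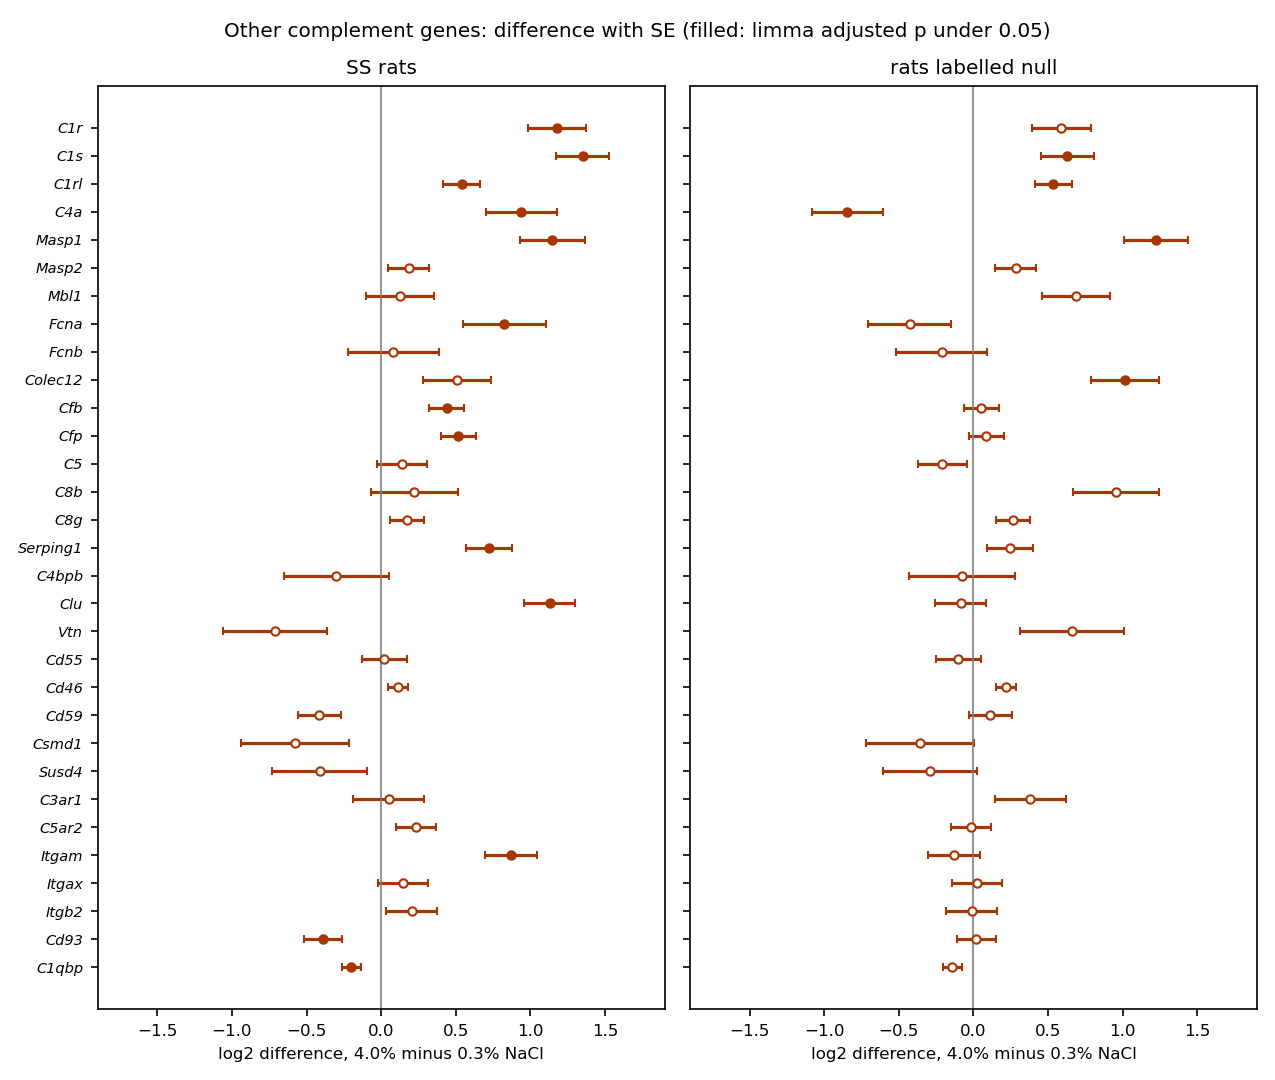
Log2 difference for high against low salt (x axis, with SE) of the 31 tested complement genes other than the 9 members, in the SS and in the null rats; filled points passed an adjusted p of 0.05. In SS rats 11 lie past the test above 0 and 2 below, and in null rats 4 and 1.

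Over the 20 libraries the 9 genes fell into patterns that differed from rat to rat. C4b and Cfi ran together (Pearson r = 0.95 of log2 counts over 20 libraries, and 0.78 as deviations from the group means), and C6 ran with C7 (0.94 and 0.80). The C1q chains ran together (0.87 to 0.88, and 0.80 to 0.85). Within groups, C4b and C7 ran in opposite directions (-0.65, against 0.05 over all libraries), as did Cfi and C1qc (-0.76). These correlations describe 20 libraries that share their groups and scaling. In the SS high-salt group, rat 1 was highest for C4b and Cfi and lowest for C3, C6, C7, C1qa and C1qc. Rat 5 was highest for C3, C6 and C7 and lowest for C4b, Cfi, Cfd and C1qb. The ratio of C4b to Cfi counts varied by less there, from 3.08 to 4.14, than either gene.

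**Figure D4:**
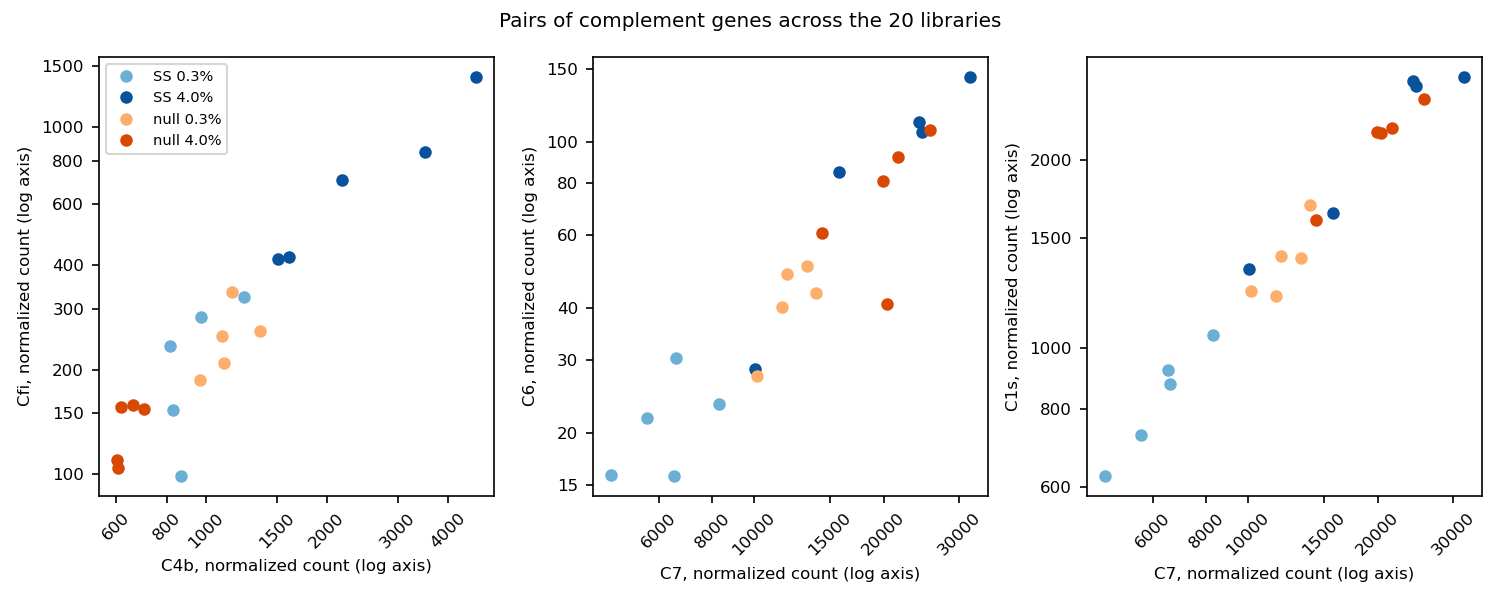
Normalized counts of Cfi against C4b, C6 against C7 and C1s against C7 (log axes), with 1 point per library coloured by group. The SS rats on high salt run from 1509 to 4686.5 for C4b, and C1s and C7 rise together over all 4 groups.

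Among 13321 genes with a mean normalized count of at least 50, those closest to C4b over the 20 libraries were C4a (r = 0.96), Ephb6 (0.95) and Cfi (0.95), and those closest to Cfi were C4b (0.95), Bcat1 (0.94) and Clu (0.92). C7 was closest to C1s (0.99), the collagen Col6a1 (0.98) and Svep1 (0.97). C6 was closest to C7 (0.94), the proteoglycan Dcn (0.91) and C1s (0.91), but as deviations from group means to Ube2e1 (0.85), Tmem248 (0.82) and Slc43a1 (0.81). C3 was closest to the macrophage surface gene Adgre1 (0.93, and 0.91 as deviations from group means) and to the C3a receptor gene C3ar1 (0.87). Cfd was closest to Clec10a (0.88), Tmem176a (0.87) and Trem2 (0.86), of which Clec10a and Trem2 are in the macrophage list. As deviations from group means Cfd was closest to Tifa (0.79), Sptlc1 (0.78) and Snx20 (0.76), none of them in that list. C1qb was closest to Il6r (0.94), Ptprc (0.92) and Cxcr6 (0.91), C1qa to Gpx8 (0.91), Cd8a (0.89) and C1qtnf5 (0.89), and C1qc to Tlr8, Selplg and RGD1563400 (0.90 each).

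Marker lists of other cell types moved beside these genes. Of all genes tested, 9.52% rose and 7.73% fell with salt in SS rats, and 3.06% and 2.45% in null rats. On high salt 3.70% were higher and 4.82% lower in null than in SS rats, and in the interaction 0.774% and 1.76%. The counts of list genes below stand beside these shares. The summed count of 8 genes of injured tubules was 45600 to 73882 in SS rats on low salt and 61062 to 188710 on high salt, and 45502 to 60561 and 27673 to 36435 in null rats. In SS rats 1 to 5 on high salt the sum was 188710, 124330, 101840, 66099 and 61062, the same order of rats as for C4b. Of the 8 injury genes, 5 rose with salt in SS rats, and 3 fell in null rats. On high salt 7 were lower and 0 higher in null than in SS rats, and in the interaction 4 were lower and 0 higher. The sum of 10 fibroblast genes was 13988 to 21284 and 28371 to 44909 in SS rats, and 23965 to 31054 and 29393 to 41905 in null rats. Of these 10 genes, 8 rose in SS rats and 1 in null rats. The sum of 10 macrophage genes was 13847 to 25376 and 22837 to 31597 in SS rats, and 17497 to 24366 and 22706 to 27599 in null rats, with 6 of 10 higher in SS rats and 1 of 10 in null rats. The sum of 9 T cell genes was 746 to 1183 on low salt and 1484 to 2281 on high salt in SS rats, without overlap, and 1054 to 1226 and 899 to 1193 in null rats. Of these 9 genes, 9 rose with salt in SS rats and 0 passed in null rats (0 also by edgeR, by DESeq2 and at an unadjusted limma p under 0.05), 5 were lower in null than in SS rats on high salt, and 4 passed for the interaction. The sum of 6 loop of Henle genes was 197170 to 290380 and 79706 to 135010 in SS rats, and 116410 to 248600 and 124430 to 142110 in null rats. All 6 fell with salt in SS rats and 2 in null rats, and 4 passed for the interaction. The part of these cell types in the complement results was not tested.

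The 9 adipocyte genes of the table summed to 5184 to 6474 in SS rats on low salt and to 5431 to 9986 on high salt, and in null rats to 5476 to 6655 and, without overlap, to 7556 to 9745. Of the 8 that were tested, 2 rose and 1 fell in SS rats, and 2 rose and 0 fell in null rats, where Cfd did not pass. The mean sum of the list was 5848 on low and 7624 on high salt in SS rats. Adipoq and Plin1 did not pass for salt in SS rats, where 2 other genes of the list rose. Adipoq and Plin1 were named after their values were seen. Adipoq was 585 ± 89.0 and 477 ± 115 normalized counts, and Plin1 was 9.16 ± 4.41 and 5.49 ± 3.79 with 0 in at least 1 SS library on high salt. Markers of hepatocytes (5 genes of the table) summed to 5705 to 7664 and 5066 to 11339 in SS rats, and to 5779 to 7787 and 5933 to 6530 in null rats. In SS rats 1 to 5 on high salt their sum was 11339, 10657, 7483, 6671 and 5066, again the order of rats seen for C4b and the injury sum. Of these 5 genes, 1 rose and 0 fell with salt in SS rats, and in the interaction 1 was lower and 0 were higher.

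**Figure D5:**
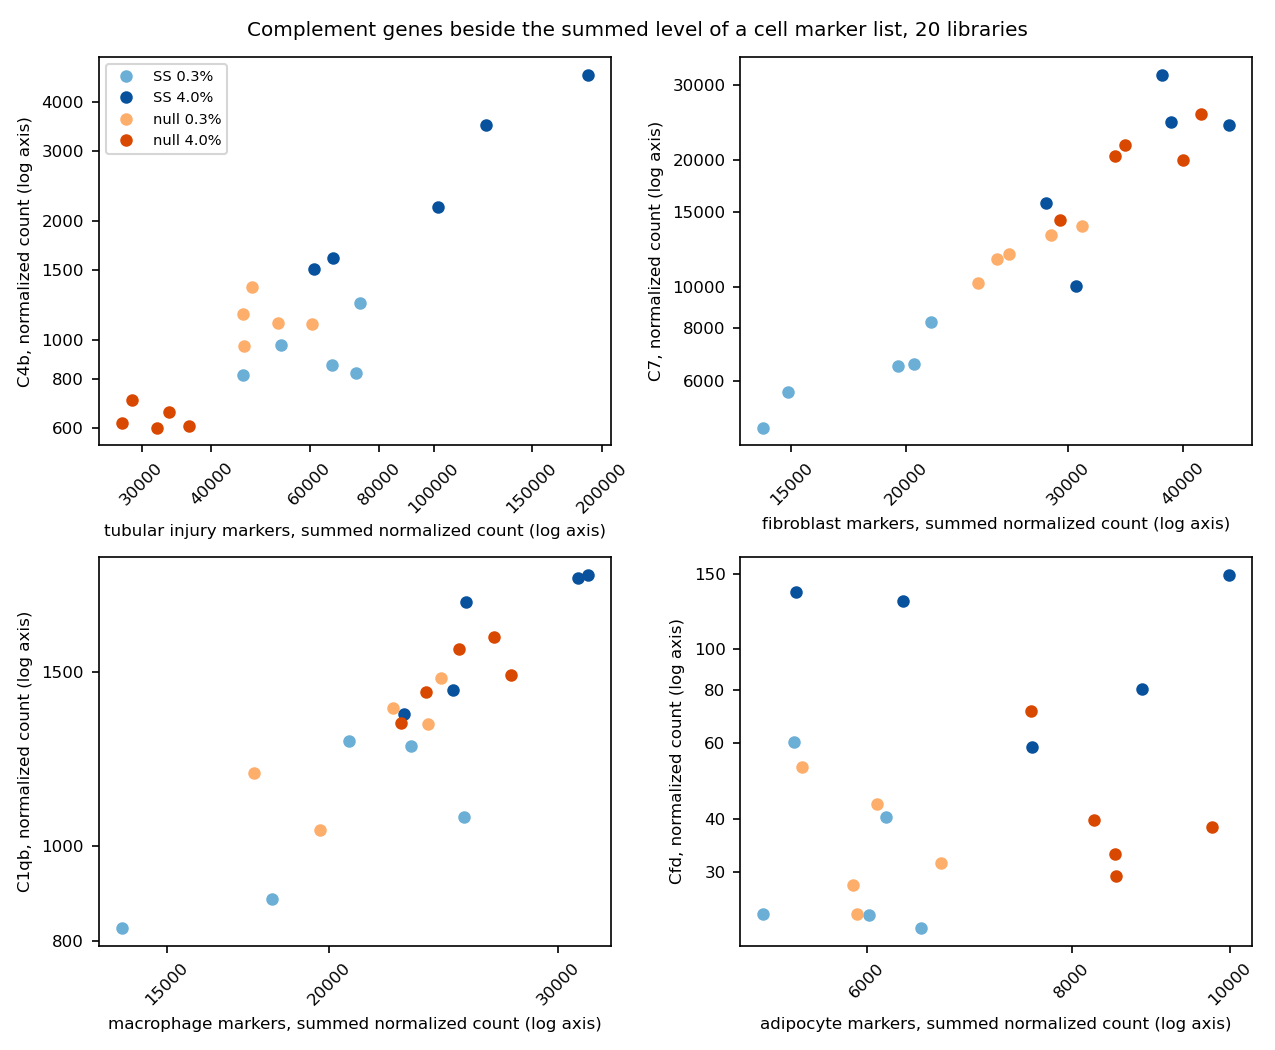
Normalized counts (y axes, log) of C4b, C7, C1qb and Cfd against the summed normalized count (x axes, log) of the tubular injury, fibroblast, macrophage and adipocyte marker lists, with 1 point per library coloured by group. C4b is highest in the SS high-salt rat with the highest injury sum (188710). Cfd runs from 58.9 to 149 in the SS high-salt rats, which lie from 5431 to 9986 on the adipocyte axis.

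The level of tubule markers differed between diets in SS rats, and on high salt also between genotypes. The mean log2 level of tubule markers, the tubule score, was 13.5 to 13.7 in SS rats on low salt and 13.1 to 13.2 on high salt. These ranges did not overlap, so the tubule score and diet cannot be told apart in SS rats. The score is a level of RNA, and whether it followed tubule content or expression per cell was not tested. In SS rats all 6 loop of Henle genes fell with salt, while 1 of 10 proximal tubule genes rose and 1 fell. In null rats the score was 13.1 to 13.6 on low and 13.3 to 13.5 on high salt, which overlapped. On high salt every null rat lay above every SS rat, so the score and genotype cannot be told apart there either. On low salt the scores of the genotypes overlapped. Their fibroblast sums did not, at 13988 to 21284 in SS and 23965 to 31054 in null rats. Of the 10 fibroblast genes, 3 were higher and 0 lower in null rats on low salt, against 0.452% and 0.105% of all genes. With this score as a covariate, 245 of all 16153 genes passed for salt in SS rats, against 2787 without it. C7 was the 1 of the 9 among them, while the estimates for C4b, C6 and Cfi were 1.56, 2.37 and 1.85 (adjusted p = 0.0562, 0.0639 and 0.11). The estimates for Cfd, C1qa and C1qb were 1.08, 0.27 and 0.71 (adjusted p = 0.416, 0.684 and 0.141). For the interaction, C4b was -2.41 and Cfi -2.71 with the score, and neither passed (adjusted p = 0.14 and 0.208), nor did any other gene of the table (0 of 16153 with the score, 409 without it). For genotype on high salt, 634 of all genes passed with the score, against 1376 without it. There C4b was -2.05 and Cfi -2.39, and both passed (limma adjusted p = 0.00203 and 0.00498). Cfd was -0.96 and did not pass (adjusted p = 0.223). Mitochondrially encoded reads took 22.6% to 42.6% of SS low-salt libraries and 6.90% to 20.4% of SS high-salt libraries. With that share as a covariate 823 of all 16153 genes passed for salt in SS rats, and 4 of the 9, which were C4b, C6, C7 and Cfi. Cfd was then 1.36, C1qb 0.51 and C1qa 0.18 (adjusted p = 0.0895, 0.105 and 0.638). C4b and Cfi still passed for the interaction (-2.24 and -2.69, adjusted p = 0.0054 and 0.0129).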

How the data were processed

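RNA of dissected kidney microvessels was measured in 20 libraries, 5 numbered rats in each of 4 groups. Nothing in the labels says how rats were assigned to groups. The p-values set differences between groups against the spread between these rats within groups. Per the submitters' processing notes, the authors used the build mRatBN7.2 with STAR 2.7.11b, featureCounts 2.0.6 (Subread), DESeq2 1.44, Trim Galore and MultiQC. Strand settings of the counting were not stated. The deposited values are a signal per gene, normalized counts that the authors made by dividing read counts by a factor for each library. Read counts were recovered from the step between values, and 100% of values came out whole within 1e-06. Every listed gene had at least 100 reads over all libraries, so rarer transcripts were not analysed here. All 20 sample columns were used (0 columns left out).

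Differences were tested with limma 3.58.1 in R 4.3.3 (lmFit, eBayes with trend) on log2(normalized count + 1) in 1 fit of 4 group means. Genes that reached 10 normalized counts in 5 or more libraries entered, 16153 in all, and 519 were left out. Benjamini-Hochberg adjustment was made over these genes within each of 5 comparisons, and fold changes on this scale understate those of rare transcripts. Errors are SE for log2 differences and SD for levels. Alternatives on the recovered reads were DESeq2 1.42.0 and the quasi-likelihood test of edgeR 4.0.16 with TMM factors. Other alternatives were pseudocounts of 0.5 and 8, no filter or a filter of 100, other scalings, a fit of the compared groups, library weights, a replicate block, 2 covariates and leaving libraries out. The fit was tested on simulated data. The 9 genes, the complement and marker lists and the alternatives were chosen with earlier results of these data known. Named are the 9 genes, Ccl2, listed complement genes past the threshold in any comparison, and the 3 genes of highest r for each of the 9. The membrane regulators, Adipoq and Plin1 were named after their values were seen. One item of the lists is not reported here and enters no count of a list. Motifs and the promoters shown were chosen in the same way. Promoter sequences are from RefSeq, GRCr8, in which all 9 names matched.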

Additional observations from a re-analysis of the deposited data

Results flagged for a closer look

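Among the 36 sets of 5 rats (9 genes in 4 groups), 2 held a library far from the other 4, where the gap to the nearest rat exceeded 0.71 of the range. Chance flags about 1 in 20 sets. Null high-salt rat 3 read 71.3 normalized counts of Cfd, above 29.3 to 39.6 in the other rats of its group. SS high-salt rat 1 read 2170.0 normalized counts of C1qc, below the other rats of its group at 3216 to 3634. The same rat was lowest of its group for C3, C6, C7 and C1qa.

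The salt effect differed between the genotypes for 2 of the 9 genes by the interaction of the limma fit. The difference was -2.22 ± 0.30 log2 for C4b (adjusted p = 0.00119) and -2.60 ± 0.43 for Cfi (adjusted p = 0.0044). Both genes were higher on high salt in 5 of 5 SS rats and lower in 5 of 5 null rats than in any low-salt rat of the same genotype.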

How the results depend on the processing

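The number of the 9 genes past the threshold was 7 for salt in SS rats, 1 for salt in null rats, 1 for null against SS on low salt, 3 on high salt and 2 for the interaction. For salt in SS rats it was 1 with the tubule score and 4 with the mitochondrial share as a covariate. In the fit of the compared groups alone it was 6, without C1qa. Beside these, 245, 823 and 1589 of all genes passed, against 2787. For salt in null rats it was 2 with total scaling, edgeR, DESeq2 or without the pair of SS high-salt rat 1 and null low-salt rat 4. There 1030, 951, 1641 and 1129 of all genes passed, against 891. It was 4 with the compared groups alone or with library weights, where 2061 and 2628 of all genes passed. On low salt it was 6 with total scaling, 3 with weights, and 0 with edgeR (C7 adjusted p = 0.0524) or the tubule score, beside 4051, 487, 63 and 0 of all genes, against 90. On high salt it was 2 with the tubule score, without Cfd, beside 634 of all genes, against 1376. For the interaction it was 4 with total scaling, DESeq2, weights or without that pair, and 0 with the tubule score, beside 1079, 829, 519, 237 and 0 of all genes, against 409. With 1 library left out these counts ranged from 6 to 8, 0 to 4, 0 to 2, 3 to 3 and 2 to 4. The filter of 100 removed C6 and Cfd. The cause of these moves was not tested.

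Of 1511 log2 differences of single genes under the alternatives, 1404 kept their direction and side of the threshold, 36 lost a call, 42 gained one and 29 changed sign, none of the last for a called difference. For salt in null rats C3 became -0.069 with weights and -0.040 without the pair (-0.040 to 0.13 with 1 library left out), and C1qa -0.028 with the mitochondrial share. On low salt Cfd became -0.041 with weights, -0.16 with the tubule score, -0.068 with the mitochondrial share and -0.025 without the pair (-0.025 to 0.36). On high salt C7 became -0.059 with edgeR, -0.060 with DESeq2, -0.11 with weights, -0.040 with the tubule score and -0.22 without the pair (-0.22 to 0.19), C1qa became 0.047 with the tubule score, and with 1 library left out C1qc ranged from -0.13 to 0.086. The C3 interaction ranged from -0.16 to 0.020 with 1 library left out.

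Rats with the same number did not deviate together, with r over 0.1 in 5 of 30 pairs (-0.16 to 0.14) and the own number as best match in 12 of 60 cases. With the rat number as a replicate block the counts were 7, 1, 1, 3 and 2. Depth limits C6 most, at 10 to 28 reads per library in SS rats on low salt.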
